A study of Mus musculus with 574 samples.

Results

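The collagen genes were taken as every gene symbol of the form Col, number, a, number. They came to 44 of 23706 genes in the table of pools and 43 of 25489 genes in the table of single cells, where Col10a1 was not analysed here. All material was developing ventral midbrain of C57BL/6 mouse embryos heterozygous for Lmx1a-EGFP, a reporter in which cells that express the transcription factor gene Lmx1a make green fluorescent protein (GFP). Lmx1a marks the floor plate of the midbrain, from which dopamine neurons arise. RNA was read with Smart-seq2, which copies whole transcripts from very little material.

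The pools held 100 cells each and formed 4 groups of 6: GFP positive at E13.5 (E for embryonic day), GFP negative at E13.5, GFP positive at E10.5 and GFP negative at E10.5. There were 550 single cells with no GFP class in the labels, of which 24.9% came from E10.5, 16.4% from E11.5, 32.4% from E12.5 and 26.4% from E13.5. All groups shared the heterozygous reporter, and no group lacked it. No embryo or litter is named for any library, so p-values measure only how these pools vary, and that may be technical. Reporter values were 51.1 to 80.3 RPKM in GFP positive and 0 RPKM in GFP negative pools at E13.5, and 170 to 231 RPKM in GFP positive and 0 to 5.82 RPKM in GFP negative pools at E10.5. RPKM scales reads by transcript length and library size, so levels of different genes can be set side by side. Depth could only be estimated roughly from the spacing of low values, at 1.30 to 3.67 M reads for a pool and 0.401 to 7.46 M for a cell. Globin RNA took up to 9.60% of all RPKM in a GFP negative pool at E10.5.

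Collagens are extracellular proteins built of 3 chains wound into a triple helix. Collagens I and III form the fibrils of connective tissue and are made by mesenchymal cells, whereas collagen II, best known from cartilage, is also made by the early neural tube. Collagens IV and XVIII are parts of basement membranes, the thin sheets on which the neural tube and its blood vessels rest. Others decorate fibrils (the FACIT group, with collagens IX, XII, XVI and XXII), form beaded filaments (collagen VI) or are anchored in the cell membrane (collagens XIII, XVII, XXIII and XXV).

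Among the tested collagens, Col3a1 and Col1a2 carry the largest log2 differences. The 250 bases before each of their RefSeq start sites (GRCm38.p6) are shown because both genes moved together in the pools. The window of Col3a1 is chr1:45311288-45311537 and that of Col1a2 is chr6:4505368-4505617, both on the plus strand. Capitals mark matches to the CCAAT box, to the GC box GGGCGG and to the TATA sequence TATAAA, searched on both strands, and no match overlaps another.
Col3a1: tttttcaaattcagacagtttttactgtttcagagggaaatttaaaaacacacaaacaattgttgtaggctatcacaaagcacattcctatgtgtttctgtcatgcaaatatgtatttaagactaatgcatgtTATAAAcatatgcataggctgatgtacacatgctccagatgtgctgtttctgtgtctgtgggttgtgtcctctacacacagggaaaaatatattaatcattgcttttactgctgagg
Col1a2: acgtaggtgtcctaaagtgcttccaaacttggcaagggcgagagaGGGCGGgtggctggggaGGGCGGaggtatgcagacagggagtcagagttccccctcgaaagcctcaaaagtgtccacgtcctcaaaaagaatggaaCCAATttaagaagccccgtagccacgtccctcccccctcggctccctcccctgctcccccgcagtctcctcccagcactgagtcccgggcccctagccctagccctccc
The Col3a1 window held 1 match, to TATAAA. The Col1a2 window held 2 matches to GGGCGG, beginning 205 and 188 bases before the start, and 1 match to CCAAT nearer to it. The windows shared none of the 3 motifs. Among all 32851 RefSeq windows of this length, 33.9% held the CCAAT box, 32.7% the GC box and 12.4% the TATA sequence, and among the 35 collagen genes with a window these shares were 34.3%, 60% and 14.3%.

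Of the 44 collagens, 24 passed the filter for testing (an RPKM of 1 or more in 6 or more pools), 11 reached an RPKM of 1 in some pool but failed the filter, and 9 stayed under 1 in every pool. Of the 24, 1 (Col13a1) reached an RPKM of 1 in no group but the one where it was high, and so had to differ between groups. Col3a1, Col1a1, Col1a2, Col6a1 and Col6a2 also needed the E10.5 GFP negative pools, where they were highest, to pass. Col25a1 needed the E13.5 GFP negative pools, and Col8a2, Col16a1 and Col27a1 the E10.5 GFP positive pools. Their tests are thus not independent of the filter. Col13a1 is in the counts of calls, in the plot of GFP differences and in the list of differences between stages, where its values are no independent result. Differences were fitted with limma on log2(RPKM + 1), a scale that understates changes of low genes, with Benjamini-Hochberg adjustment over all 15871 genes tested and a call at an adjusted p under 0.05.

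In GFP positive against GFP negative pools at E10.5, 2 collagens were called higher and 8 lower, where 4.51% of all genes were called higher and 8.64% lower. At E13.5 the same comparison called 2 collagens higher and 1 lower, against 3.42% and 3.74% of all genes. E13.5 against E10.5 called 2 higher and 12 lower in GFP positive pools, where 22.1% of all genes were higher and 29.6% lower. In GFP negative pools it called 3 higher and 19 lower, where 19.7% of all genes were higher and 26.9% lower. The GFP difference itself was higher at E13.5 than at E10.5 for 7 collagens and lower for 0, against 3.93% and 1.90% of all genes. Of all genes, 2936 had an unadjusted p under 0.05 in this last comparison, in either direction. Col13a1 is 1 of the 8 lower with GFP at E10.5, 1 of the 19 lower with stage in GFP negative pools and 1 of the 7 in the last comparison. With Col13a1 alone left aside, the counts lower with stage, lower with GFP at E10.5 and higher in the last comparison are larger than these shares of the members would give. These counts hold further members that needed the high group to pass the filter. They are Col3a1, Col1a1, Col1a2, Col6a1 and Col6a2, and for stage in GFP positive pools Col8a2, Col16a1 and Col27a1. That part of the counts is no independent result. Without these members and Col13a1, only Col26a1 and Col23a1 remain lower with GFP at E10.5, and only Col26a1 remains in the last comparison. Those are too few to read against the shares. The 2 higher with GFP at each stage also exceed the shares but are too few to read. The remaining counts are near or below the shares.

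The median log2 difference of the tested collagens was -0.27 for GFP at E10.5, beside -0.01 over all genes. It was -0.11 for GFP at E13.5, beside -0.03. For stage it was -0.73 in GFP positive pools but -1.71 in GFP negative ones, beside -0.14 and -0.11.

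Summed over all 44 members, collagen RNA was much lower at E13.5. The sum averaged 44.2 ± 5.59 RPKM in GFP positive and 39.6 ± 3.16 RPKM in GFP negative pools at E13.5, and 188 ± 12.7 RPKM in GFP positive and 269 ± 75.4 RPKM in GFP negative pools at E10.5 (SD, n = 6 each). Collagens I and III made up 0.988% of collagen RPKM in E10.5 GFP positive pools, against 40.3% in GFP negative ones. Col2a1, Col4a1, Col4a2, Col5a2 and Col18a1 together made up 76.2% in GFP positive pools at E10.5, against 37.7% in GFP negative pools. At E13.5 the same 5 genes made up 52.9% in GFP positive pools, against 22.7% in GFP negative ones, and FACIT collagens made up 23.2% in GFP positive pools, against 39.8% in GFP negative ones. In pools, fewer cells of a type and less RNA per cell cannot be told apart.

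**Figure D1:**
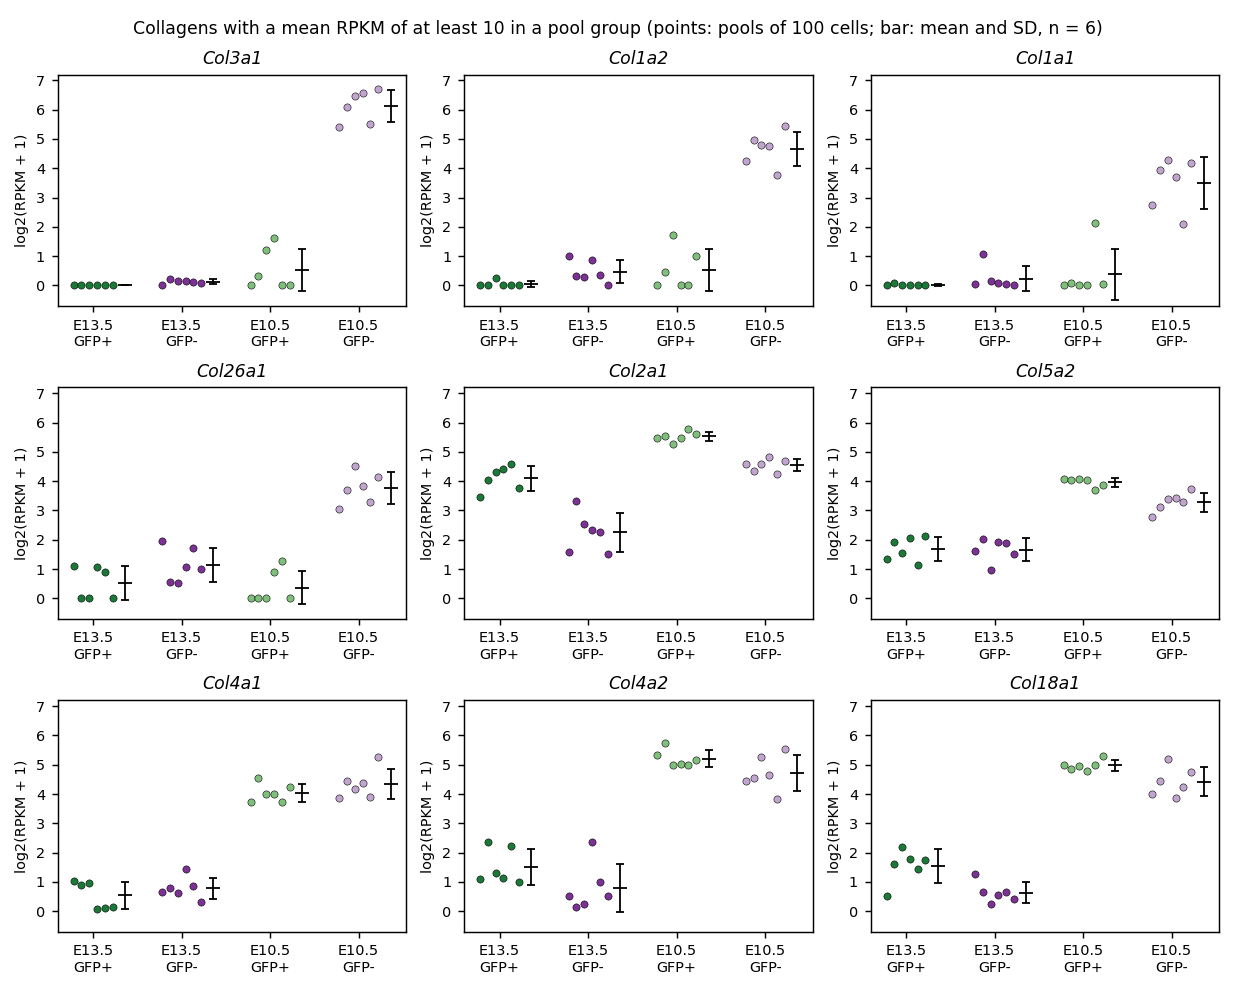
Each panel plots log2(RPKM + 1) of 1 collagen that averaged 10 RPKM or more in some group; points are pools of 100 cells, and the bar beside them is the mean and SD of 6 pools. Col3a1, Col1a2, Col1a1 and Col26a1 are high only among E10.5 GFP negative pools, Col2a1 is higher in GFP positive pools at both stages, and Col4a1, Col4a2, Col18a1 and Col5a2 are high in both E10.5 groups.

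The mesenchymal collagens I and III were found almost wholly in the GFP negative pools of E10.5. Col3a1, the single chain of collagen III (chr1:45311538-45349706), was listed at 0 RPKM in all 6 GFP positive pools at E13.5 and had a lowest, median and highest value of 0, 0.101 and 0.178 RPKM in GFP negative pools at E13.5. It had 0, 0.133 and 2.07 RPKM in E10.5 GFP positive pools, against 41.6, 77.1 and 102.5 RPKM in GFP negative pools. Every E10.5 GFP negative pool thus lay far above every other pool. The mean was 119.1-fold lower in GFP positive than in GFP negative pools at E10.5, a log2 difference of -5.59 ± 0.29 (SE, limma adjusted p = 4.08e-13). The fold rests on low values in the GFP positive pools, 3 of which were at 0, and was 227-fold without E10.5 GFP positive replicate 4. In GFP negative pools it was 785-fold lower at E13.5 than at E10.5 (log2 difference -6.00 ± 0.29, limma adjusted p = 3.65e-14).

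Col1a2, the second chain of collagen I (chr6:4505618-4541543), had 0, 0.179 and 2.28 RPKM (lowest, median, highest) in GFP positive pools at E10.5, against 12.8, 26.6 and 42.8 RPKM in GFP negative pools. At E13.5 it had 0, 0 and 0.202 RPKM in GFP positive and 0, 0.268 and 0.993 RPKM in GFP negative pools. The E10.5 groups did not overlap, and the E13.5 groups did. The log2 difference was -4.14 ± 0.31 for GFP at E10.5 (limma adjusted p = 2.84e-10) and -4.20 ± 0.31 for stage in GFP negative pools (limma adjusted p = 3.75e-11).

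Col1a1, the other chain of collagen I (chr11:94936224-94953042), had 0, 0.0190 and 3.41 RPKM in E10.5 GFP positive pools, against 3.27, 13.1 and 18.6 RPKM in GFP negative pools. A single GFP positive pool reached into the range of the GFP negative ones, and the other GFP positive pools lay far below it. At E13.5 all pools lay at or under 0.0544 RPKM in the GFP positive and 1.10 RPKM in the GFP negative group. The GFP difference at E10.5 was -3.11 ± 0.38 on the log2 scale (limma adjusted p = 9.93e-07), and the stage difference in GFP negative pools was -3.26 ± 0.38 (limma adjusted p = 8.16e-08). Collagen I is built of more Col1a1 than Col1a2 chains, yet Col1a2 RNA exceeded Col1a1 RNA in all 6 E10.5 GFP negative pools, by 1.44-fold to 3.91-fold with a median of 2.33.

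Neither GFP comparison at E13.5 nor stage in GFP positive pools called Col3a1, Col1a1 or Col1a2. Their log2 differences for GFP at E13.5 were -0.13, -0.22 and -0.43 (standard errors 0.29, 0.38 and 0.31). The GFP difference itself differed between the stages for all 3, at 5.47 ± 0.41 for Col3a1, 2.89 ± 0.53 for Col1a1 and 3.72 ± 0.44 for Col1a2 (SE, limma adjusted p = 3.57e-09, 0.000946 and 3.13e-06).

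Mesenchyme markers moved with these collagens. Of 12 listed mesenchyme markers, 10 were tested and 5 were lower in GFP positive than in GFP negative pools at E10.5, among them Foxc2, which passed the filter only through the GFP negative pools. Lum, a proteoglycan of collagen fibrils, averaged 10.1 ± 6.98 RPKM in GFP positive and 66.9 ± 14.3 RPKM in GFP negative pools at E10.5, and Bgn, another such proteoglycan, 0.180 ± 0.440 and 38.9 ± 17.7 RPKM (SD, n = 6 each). Foxc2, a transcription factor of head mesenchyme, was listed at 0 in all pools except the E10.5 GFP negative ones, where it averaged 5.60 ± 2.31 RPKM. The summed level of the list was 101.3 to 122.8 RPKM in GFP positive and 119.5 to 311 RPKM in GFP negative pools at E10.5. Fbln1, a fibulin that is on the list, gave most of the GFP positive sum with 77.9 ± 5.29 RPKM in GFP positive and 68.3 ± 24.9 RPKM in GFP negative pools at E10.5. At E13.5 the sums were 11.04 to 24.95 RPKM in GFP positive pools, with Dcn, Postn, Twist1, Foxc1 and Foxc2 at 0, and 6.96 to 55.4 RPKM in GFP negative pools, with Twist1, Foxc2 and Ogn at 0.

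The 6 E10.5 GFP negative pools fell in the same order by collagens I and III as by mesenchyme markers. The summed RPKM of Col1a1, Col1a2 and Col3a1 was 60.1, 65.3, 111.98, 132.4, 133.3 and 162.6, and the mesenchyme markers of the same pools summed to 119.55, 163.7, 212, 231, 252 and 311 RPKM. The number of mesenchymal cells in each pool is not given, and the part of pool composition in the collagen differences was not tested.

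**Figure D2:**
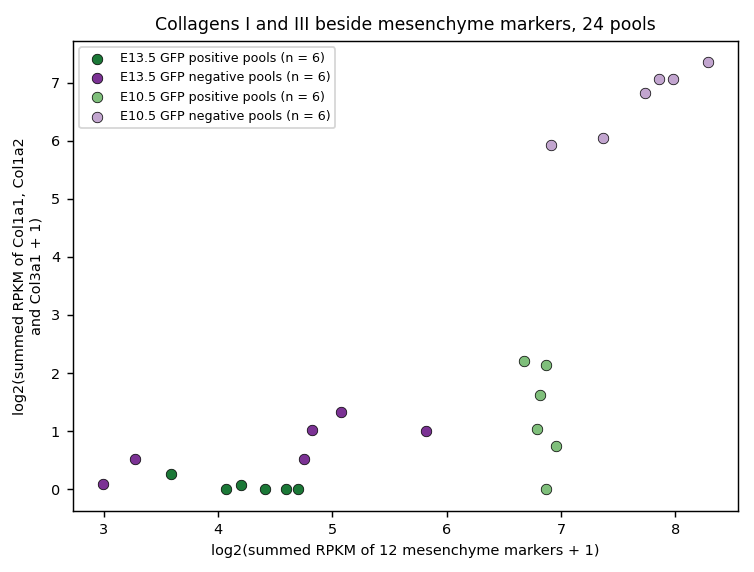
The sum of Col1a1, Col1a2 and Col3a1 is plotted against the sum of 12 mesenchyme markers, both as log2(summed RPKM + 1), with 1 point for each of 24 pools. The E10.5 GFP negative pools stand alone at the upper right, with collagen sums of 60.1 to 162.6 RPKM, and the E10.5 GFP positive pools have mesenchyme sums of 101.3 to 122.8 RPKM with little collagen.

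Other cell types were also unevenly spread over the E10.5 pools. Endothelial markers summed to 7.17 to 14.02 RPKM in GFP positive and 20.8 to 188 RPKM in GFP negative pools, with Tek and Cldn5 at 0 in the GFP positive ones. Microglia and macrophage markers summed to 1.17 to 5.995 RPKM in GFP positive pools, with C1qa, C1qb, C1qc, Aif1 and Ptprc at 0, and to 7.72 to 325 RPKM in GFP negative pools. Red blood cell markers summed to 38.8 to 81.6 RPKM in GFP positive and 41.6 to 77730 RPKM in GFP negative pools. Of tested markers, 5 of 6 endothelial, 7 of 8 microglia and macrophage and 6 of 6 red blood cell ones were lower with GFP at E10.5, and 0 were higher. Of all genes, 8.64% were lower and 4.51% higher there.

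Pericyte markers summed to 298 to 442 RPKM in GFP positive and 116.9 to 458 RPKM in GFP negative pools at E10.5, with Rgs5, Kcnj8 and Abcc9 at 0 in the GFP positive ones. Of 5 tested, 1 was higher and 2 were lower in the GFP positive pools. Neural crest and Schwann cell markers summed to 18.2 to 34.1 RPKM in GFP positive and 26.5 to 85.6 RPKM in GFP negative pools, with 1 of 2 tested lower. Neuron markers summed to 329 to 536 RPKM in GFP positive and 1417 to 2524 RPKM in GFP negative pools, with 10 of 10 lower. Neural progenitor markers summed to 3022 to 3585 RPKM in GFP positive and 2796 to 3594 RPKM in GFP negative pools, with 4 of 10 higher and 2 lower. Of all genes, 4.51% were higher and 8.64% lower in this comparison.

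At E13.5, endothelial sums were 7.30 to 19.5 RPKM in GFP positive and 1.86 to 80.1 RPKM in GFP negative pools, microglia and macrophage sums 0 to 8.67 and 0 to 259.6 RPKM, and red blood cell sums 2.27 to 26.9 and 25.97 to 14420 RPKM. Neural progenitor sums were 1565 to 2334 RPKM in GFP positive and 628 to 1588 RPKM in GFP negative pools, and 8 of 10 markers were called higher and 1 lower in the GFP positive ones. Of all genes, 3.42% were higher and 3.74% lower with GFP at E13.5. Neuron sums were 4477 to 4979 RPKM in GFP positive and 4480 to 5115 RPKM in GFP negative pools, with 1 of 10 higher and 1 lower. Pericyte sums were 5.76 to 24.8 RPKM in GFP positive and 1.30 to 7.67 RPKM in GFP negative pools, with 1 of 5 tested higher, and neural crest and Schwann cell sums were 6.34 to 15.9 and 8.73 to 41.98 RPKM, with none of 2 called. The part of these cell types in the GFP differences was not tested.

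The genes whose log2 values were most like those of Col3a1 over the 24 pools, collagens aside, were Foxc2 (Pearson r = 0.975), the mesenchymal and pericyte transcription factor gene Tbx18 (0.971), the collectin gene Colec12 (0.969), Tgfbi, which codes for a matrix protein (0.966), and Ddr2, a receptor for fibrillar collagens (0.962). All 5 averaged under 1 RPKM in the E13.5 groups and in E10.5 GFP positive pools, and 4.19 to 18.1 RPKM in E10.5 GFP negative pools. These correlations describe 24 pools in 4 groups and rest on the difference between 1 group and the others.

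Collagen VI and Col26a1 shared the E10.5 GFP negative pattern at lower levels. Col26a1, an emilin-related collagen (chr5:136741759-136883376), had 0, 0 and 1.41 RPKM in GFP positive and 7.19, 12.6 and 22.04 RPKM in GFP negative pools at E10.5, with no overlap. At E13.5 it had 0, 0.440 and 1.15 RPKM in GFP positive and 0.444, 1.04 and 2.84 RPKM in GFP negative pools. The log2 difference for GFP was -3.39 ± 0.34 at E10.5 (limma adjusted p = 3.78e-08) and -0.62 ± 0.34 at E13.5 (limma adjusted p = 0.324). Stage changed it by -2.62 ± 0.34 in GFP negative pools (limma adjusted p = 4.64e-07) and by 0.16 ± 0.34 in GFP positive ones.

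Col6a1 and Col6a2 code for obligatory chains of collagen VI. Col6a1 had 0, 0 and 1.66 RPKM in GFP positive and 1.09, 3.56 and 4.83 RPKM in GFP negative pools at E10.5, so the groups overlapped. Col6a2 had 0, 0.590 and 1.60 RPKM in GFP positive and 2.296, 4.38 and 6.08 RPKM in GFP negative pools, with no overlap. Their GFP differences at E10.5 were -1.62 ± 0.28 and -1.63 ± 0.26 on the log2 scale (limma adjusted p = 0.000151 and 5.12e-05). At E13.5 neither exceeded 0.748 RPKM in any pool. Col6a3, whose chain completes the usual trimer, did not pass the filter and peaked at 2.41 RPKM in a GFP negative pool of E13.5.

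The transmembrane collagens Col13a1 and Col23a1 were also lower on average in GFP positive pools at E10.5. Col13a1 was at 0 in 5 of 6 GFP positive pools and at 0.754 RPKM in the other, against 1.05 to 2.43 RPKM in GFP negative pools, the only pools in which it reached an RPKM of 1. Col23a1 had 0, 2.12 and 3.60 RPKM in GFP positive and 3.47, 5.31 and 7.34 RPKM in GFP negative pools, with overlap (log2 difference -1.26 ± 0.40, limma adjusted p = 0.0372), and this call was lost in 10 of 21 alternative settings. The GFP difference also differed between the stages for Col26a1 (2.78 ± 0.48), Col6a1 (1.52 ± 0.40) and Col6a2 (1.52 ± 0.37), but was not called to differ for Col23a1 (0.96 ± 0.57).

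Col25a1, the transmembrane collagen of neurons that is also found in amyloid plaques, went the other way with stage. It had 0.0767, 0.375 and 1.499 RPKM in GFP positive and 1.39, 2.11 and 2.93 RPKM in GFP negative pools at E13.5, with overlap, and 0.554 RPKM or less in every pool at E10.5. It was lower in GFP positive pools at E13.5 (log2 difference -1.05 ± 0.24, limma adjusted p = 0.00633). In GFP negative pools it was higher at E13.5 than at E10.5 by 1.39 ± 0.24 (limma adjusted p = 3.66e-05), and in GFP positive pools the difference of 0.58 ± 0.24 missed the threshold (limma adjusted p = 0.0503), which 8 of 21 alternative settings passed. The 5 genes most like it over 24 pools were Diras2 (Pearson r = 0.919), the GABA receptor subunit gene Gabrb1 (0.879), the postsynaptic scaffold gene Dlgap1 (0.876), Fev, a transcription factor gene of serotonergic neurons (0.875), and the ephrin receptor gene Ephb1 (0.873). Fev averaged 33.4 RPKM in GFP negative pools at E13.5 and was listed at 0 in GFP positive pools at both stages.

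Col2a1, the single chain of collagen II (chr15:97975602-98004724), was the collagen with the highest mean in both GFP positive groups, and it was higher in GFP positive pools at both stages. It had 9.97, 17.2 and 22.7 RPKM in GFP positive and 1.84, 3.93 and 8.94 RPKM in GFP negative pools at E13.5. At E10.5 it had 37.9, 44.8 and 53.4 RPKM in GFP positive and 17.97, 23.1 and 27.5 RPKM in GFP negative pools. The GFP groups overlapped at neither stage. Its log2 difference for GFP was 1.84 ± 0.24 at E13.5 (limma adjusted p = 6.19e-06) and 0.98 ± 0.24 at E10.5 (limma adjusted p = 0.00536), 3.93-fold and 2.003-fold by means. The difference between the stages, 0.86 ± 0.34, did not pass (limma adjusted p = 0.152), but did without E13.5 GFP negative pool 2 (1.07, limma adjusted p = 0.031). It was lower at E13.5 than at E10.5, with log2 differences of -1.44 ± 0.24 in GFP positive and of -2.30 ± 0.24 in GFP negative pools (limma adjusted p = 1.42e-05 and 1.4e-08).

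The genes most like Col2a1 over the 24 pools were the junction adhesion gene Jam3 (Pearson r = 0.957), the receptor gene Notch2 (0.952), the actin binding gene Cald1 (0.952), the floor plate ligand gene Shh (0.949) and the calponin gene Cnn3 (0.944). Shh averaged 7.43 RPKM in GFP positive and 0.744 RPKM in GFP negative pools at E13.5, and 65.95 and 19.4 RPKM in those classes at E10.5.

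**Figure D3:**
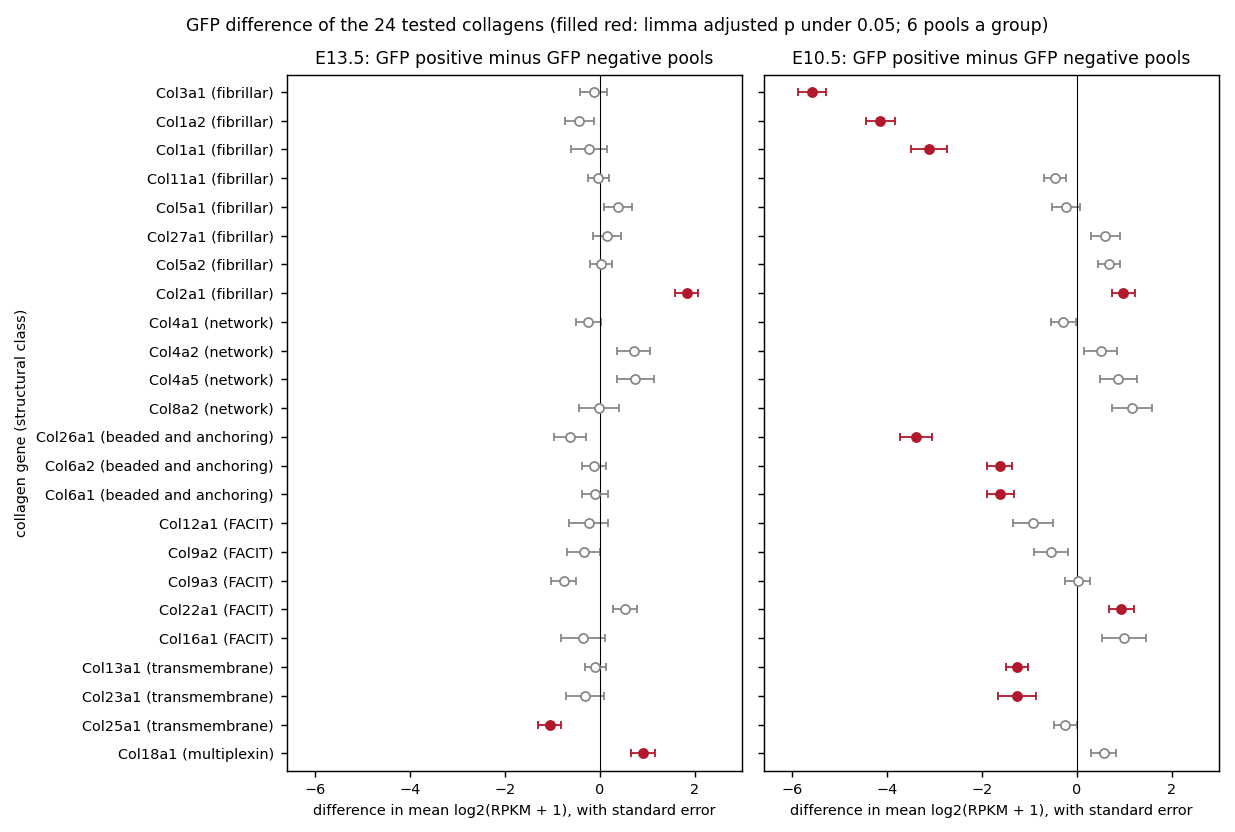
Points are the differences in mean log2(RPKM + 1), GFP positive minus GFP negative, of the 24 tested collagens at E13.5 (left) and E10.5 (right), with standard errors from limma and 6 pools a group; filled red points have an adjusted p under 0.05. Col3a1 lies at -5.59 at E10.5 and -0.13 at E13.5, while Col2a1 lies at 0.98 and 1.84. Col13a1 is drawn although it passed the filter only through E10.5 GFP negative pools.

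Collagens IX and XI accompany collagen II in cartilage, but in these pools they did not follow it. Col9a3 had 3.27, 4.97 and 5.60 RPKM in GFP positive and 5.67, 8.57 and 11.7 RPKM in GFP negative pools at E13.5, and at most 0.690 RPKM in GFP positive and 1.89 RPKM in GFP negative pools at E10.5. It was higher at E13.5 by 1.99 ± 0.27 in GFP positive and by 2.77 ± 0.27 in GFP negative pools (log2, limma adjusted p = 5.09e-07 and 3.39e-09). The E13.5 GFP groups did not overlap, yet the difference of -0.76 ± 0.27 missed the threshold (limma adjusted p = 0.0874).

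Col9a2, another chain of collagen IX, had 0.913, 3.29 and 4.29 RPKM in GFP positive and 0.353, 4.25 and 8.43 RPKM in GFP negative pools at E13.5. At E10.5 it had 0 to 0.693 RPKM in GFP positive and 0.319 to 1.17 RPKM in GFP negative pools. It was higher at E13.5 by 1.64 ± 0.35 in GFP positive and by 1.43 ± 0.35 in GFP negative pools (limma adjusted p = 0.000334 and 0.00159). Col9a1, the chain that completes collagen IX, did not pass the filter, with a highest value of 1.25 RPKM in GFP positive pools at E13.5, 0 in all GFP negative pools at E13.5 and 3.48 RPKM in GFP negative pools at E10.5. Col11a1, a chain of collagen XI, was called in none of the 5 comparisons and averaged 1.82 ± 0.66 RPKM in GFP positive and 1.85 ± 0.55 RPKM in GFP negative pools at E13.5, and 1.84 ± 0.63 and 2.87 ± 0.48 RPKM in those classes at E10.5 (SD, n = 6 each).

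The basement membrane collagens Col4a1, Col4a2 and Col18a1 were high in both GFP classes at E10.5 and low in both at E13.5. Among other collagens of basement membranes, Col4a3, Col4a4, Col4a6 and Col15a1 were low throughout, averaging under 1 RPKM in each group. Col4a5 was not, since it averaged above 1 RPKM in both E10.5 groups and was called lower at E13.5 in both classes. Neuron markers moved with stage the other way, with 10 of 10 higher at E13.5 in GFP positive pools, and 8 higher and 1 (Nefm) lower in GFP negative pools. Progenitor markers moved with it, with 6 of 10 lower and 1 (Fabp7) higher in GFP positive pools, and 8 lower and 0 higher in GFP negative pools. Their part in the stage differences was not tested. Col4a1 (chr8:11198423-11312889) had 0.0506, 0.486 and 1.06 RPKM in GFP positive pools at E13.5, against 12.3, 14.98 and 22.4 RPKM at E10.5. In GFP negative pools it had 0.256, 0.641 and 1.69 RPKM at E13.5, against 13.53, 18.2 and 37.2 RPKM at E10.5. The stages did not overlap in either class, with log2 differences of -3.50 ± 0.27 and -3.55 ± 0.27 (limma adjusted p = 3.33e-11 and 5.82e-11), or 30.4-fold and 26.5-fold lower means.

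Col4a2 (chr8:11312805-11449287), which pairs with Col4a1 in the common form of collagen IV, had 1.02, 1.31 and 4.17 RPKM in GFP positive pools at E13.5, against 30.4, 32.99 and 52 RPKM at E10.5. In GFP negative pools it had 0.103, 0.425 and 4.16 RPKM at E13.5, against 13.2, 23.03 and 45.7 RPKM at E10.5. The stages again did not overlap, with log2 differences of -3.69 ± 0.34 in GFP positive and of -3.91 ± 0.34 in GFP negative pools (limma adjusted p = 1.2e-09 and 8.3e-10). Col4a1 and Col4a2 lie head to head on opposite strands, with start sites 21 bases apart in the promoter windows used. The annotated span of Col4a1 reaches farther, past both of these sites. Reads in the stretch where the spans overlap cannot be assigned to 1 gene without strand. The Col4a2 to Col4a1 ratio was 1.94 to 3.21 (median 2.22) in GFP positive and 0.945 to 2.20 (median 1.22) in GFP negative pools at E10.5, although collagen IV holds more Col4a1 than Col4a2 chains. Neither gene was called for GFP at either stage, with log2 differences of -0.24 ± 0.27 and 0.72 ± 0.34 at E13.5 and -0.29 ± 0.27 and 0.50 ± 0.34 at E10.5.

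Col18a1, the precursor of endostatin (chr10:77052178-77166530), had 0.421, 2.21 and 3.60 RPKM in GFP positive and 0.182, 0.519 and 1.43 RPKM in GFP negative pools at E13.5. At E10.5 it had 26.7, 30.3 and 38.6 RPKM in GFP positive and 13.7, 19.4 and 35.6 RPKM in GFP negative pools. The GFP groups overlapped at both stages and the stages overlapped in neither class. It was lower at E13.5, with log2 differences of -3.43 ± 0.26 in GFP positive and of -3.79 ± 0.26 in GFP negative pools (limma adjusted p = 2.96e-11 and 1.22e-11). Its GFP difference was called at E13.5 (0.91 ± 0.26, limma adjusted p = 0.0317), a call lost in 10 of 22 alternative settings, and not at E10.5 (0.56 ± 0.26, limma adjusted p = 0.183).

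Col5a2, a chain of the fibril-nucleating collagen V (chr1:45374331-45503282), had 1.19, 2.35 and 3.40 RPKM in GFP positive and 0.957, 2.37 and 3.11 RPKM in GFP negative pools at E13.5. At E10.5 it had 11.9, 15.4 and 15.97 RPKM in GFP positive and 5.77, 9.15 and 12.3 RPKM in GFP negative pools, where the groups overlapped in a narrow range. It was lower at E13.5, with log2 differences of -2.27 ± 0.23 in GFP positive and of -1.63 ± 0.23 in GFP negative pools (limma adjusted p = 5.58e-09 and 1.9e-06). The GFP difference at E10.5, 0.68 ± 0.23, stood at a limma adjusted p of 0.0531 and passed the threshold in 7 of 22 alternative settings. Although collagen V goes into collagen I fibrils, Col5a2 was high in the E10.5 GFP positive pools, where Col1a1 and Col1a2 were near 0, and it was low with them in both E13.5 groups. Col5a1, its partner chain, was also lower at E13.5, with log2 differences of -1.64 ± 0.29 in GFP positive and of -2.27 ± 0.29 in GFP negative pools (limma adjusted p = 3.22e-05 and 4.08e-07).

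Further members lower at E13.5 in both classes were Col16a1, Col22a1, Col27a1, Col4a5 and Col6a2, with log2 differences of -0.64 to -2.56 in GFP positive and -0.77 to -2.16 in GFP negative pools. Among these, the Col6a2 call in GFP positive pools and the Col16a1 and Col27a1 calls in GFP negative pools were each lost in 9 to 11 of 21 alternative settings. Col8a2, a short-chain network collagen, was called lower in GFP positive pools alone (-1.69 ± 0.42, against -0.52 ± 0.42 in GFP negative pools), and that difference between classes was not called (limma adjusted p = 0.300). Col22a1 was the second collagen higher in E10.5 GFP positive pools, with 2.69, 3.77 and 6.83 RPKM in GFP positive and 1.08, 1.55 and 2.70 RPKM in GFP negative pools (log2 difference 0.94 ± 0.26, limma adjusted p = 0.0130). The lowest GFP positive pool lay just under the highest GFP negative pool.

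The 9 members under an RPKM of 1 in every pool were Col19a1, Col4a3, Col4a4, Col10a1, Col14a1, Col5a3, Col6a5, Col6a6 and Col7a1. Among untested members the highest single pools were 9.68 RPKM of Col24a1 in a GFP positive pool at E10.5 and 7.43 RPKM of Col8a1 in a GFP negative pool at E13.5. Each of these groups also held pools at 0.

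The list of mesenchymal collagens held 9 members, Col1a1, Col1a2, Col3a1, Col5a1, Col5a2, Col6a1, Col6a2, Col6a3 and Col14a1, of which 7 were tested. Of these, 5 were lower with GFP at E10.5, where 8.64% of all genes were. In GFP negative pools 7 of 7 were lower at E13.5, where 26.9% of all genes were. The medians were -1.63 and -2.27. The 5 needed the E10.5 GFP negative pools to pass the filter, so these counts are no independent result. The sum of the list without collagens I and III was 17.4 to 26.1 RPKM in GFP positive and 18.8 to 28.2 RPKM in GFP negative pools at E10.5, ranges that overlap. Of 3 tested neural collagens (5 listed: Col2a1, Col9a1, Col11a1, Col19a1 and Col25a1), 1 was higher in E10.5 GFP positive pools, and 1 was higher and 1 lower in those of E13.5, too few to read against all genes. The sum of the 5 neural collagens was 12.9 to 24.9 RPKM in GFP positive and 6.36 to 13.6 RPKM in GFP negative pools at E13.5. At E10.5 it was 39.9 to 55.3 and 21.4 to 31.3 RPKM in those classes. Col2a1 gave most of it except in GFP negative pools at E13.5, where it averaged 4.24 RPKM of a mean sum of 8.52 RPKM.

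Genes that modify and fold collagen chains had a median stage difference of -0.64 in GFP positive and of -0.67 in GFP negative pools. Of 19 tested, 9 were lower and 1 higher at E13.5 in GFP positive pools, and 10 lower and 1 higher in GFP negative pools. Among all genes, 29.6% were lower and 22.1% higher with stage in GFP positive pools, and 26.9% and 19.7% in GFP negative pools, and these shares are the background for each list by stage. Serpinh1, the collagen chaperone HSP47, averaged 12.8 ± 7.02 RPKM in GFP positive and 10.8 ± 5.31 RPKM in GFP negative pools at E13.5, and 66.3 ± 7.18 and 89.2 ± 32.4 RPKM in those classes at E10.5 (SD, n = 6 each). P4ha3, a prolyl hydroxylase subunit, was higher in GFP positive pools at both stages, with 29.1 ± 11.02 against 7.48 ± 7.63 RPKM at E13.5 and 27.9 ± 7.24 against 4.24 ± 2.72 RPKM at E10.5 (log2 differences 2.13 ± 0.41 and 2.62 ± 0.41, limma adjusted p = 0.001 and 3.79e-05). P4ha1, another such subunit, was also higher at both stages (1.001 ± 0.19 and 0.78 ± 0.19). At E13.5 the list gave 4 higher and 1 lower for GFP, where 3.42% of all genes were higher and 3.74% lower. At E10.5 it gave 2 higher and 0 lower, where 4.51% of all genes were higher and 8.64% lower. Sparc, a collagen-binding matrix protein, was higher in GFP positive pools at E13.5 (1.71 ± 0.32), and its GFP difference differed between stages (2.41 ± 0.46, limma adjusted p = 0.00123).

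Of 10 tested genes that trim and cross-link collagen, 1 was higher and 2 were lower with GFP at E10.5, and none at E13.5 in either direction. These counts are too small to read against the 4.51% of all genes higher and 8.64% lower at E10.5. Pcolce, which speeds the trimming of fibrillar procollagen, averaged 3.72 ± 1.10 RPKM in GFP positive and 43.6 ± 18.2 RPKM in GFP negative pools at E10.5 (log2 difference -3.18 ± 0.28, limma adjusted p = 5.02e-09) and 0.134 ± 0.213 and 0.241 ± 0.589 RPKM in those classes at E13.5. The cross-linking oxidase gene Loxl2 was lower at E13.5 in both classes (-2.59 ± 0.29 and -2.52 ± 0.29). At E13.5 6 of these genes were lower and 1 higher in GFP positive pools, and 5 lower and 0 higher in GFP negative pools.

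Collagen receptors differed among themselves. Ddr2 averaged 0.206 ± 0.200 RPKM in GFP positive and 12.45 ± 7.23 RPKM in GFP negative pools at E10.5 (log2 difference -3.33 ± 0.30, limma adjusted p = 9.31e-09), whereas the related receptor gene Ddr1 averaged 237 ± 41.2 and 211 ± 69.4 RPKM there and was not called. At E13.5 Ddr1 averaged 343 ± 70.5 RPKM in GFP positive and 202 ± 40.3 RPKM in GFP negative pools (0.76 ± 0.19, limma adjusted p = 0.0115). Itga11, an integrin subunit that binds fibrillar collagen, turned round between the stages, with 3.14 ± 2.06 RPKM in GFP positive and 0.0583 ± 0.0788 RPKM in GFP negative pools at E13.5, and 0.145 ± 0.219 and 3.75 ± 1.87 RPKM in those classes at E10.5 (difference between stages 3.76 ± 0.47, limma adjusted p = 6.22e-06). In all, 0 of 6 tested receptors were higher and 2 were lower with GFP at E10.5, and 2 higher and 0 lower at E13.5. By stage, 3 were higher and 2 were lower in GFP positive pools, and 1 higher and 4 lower in GFP negative pools, counts too small to read against the shares of all genes.

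Of 13 tested basement membrane partners, 8 were lower and 1 higher at E13.5 in GFP positive pools, and 10 lower and 2 higher in GFP negative pools. Nid1, which links laminin to collagen IV, averaged 0.144 ± 0.325 RPKM in GFP positive and 0.538 ± 0.914 RPKM in GFP negative pools at E13.5, and 2.29 ± 1.01 and 9.69 ± 5.71 RPKM in those classes at E10.5. Laminin chains differed by GFP at E10.5, with Lamb1 (-2.60 ± 0.44) and Lamc3 (-2.62 ± 0.26) lower and Lamb2 (1.30 ± 0.28) higher in GFP positive pools. With Nid1 (-1.61 ± 0.34), this made 1 higher and 3 lower at E10.5, where 4.51% of all genes were higher and 8.64% lower. At E13.5 none passed, Lamb2 with 0.88 ± 0.28 (limma adjusted p = 0.0534). Of 4 tested collagen-degrading proteases, Mmp2 alone was called for GFP at E10.5 (16.4 ± 3.99 RPKM in GFP positive and 45.5 ± 9.06 RPKM in GFP negative pools, limma adjusted p = 0.00254). Mmp16, a membrane-bound protease, was higher at E13.5 in both classes (log2 differences of 1.64 ± 0.23 in GFP positive and of 1.17 ± 0.23 in GFP negative pools). By stage, 2 of the 4 proteases were higher and 1 was lower in GFP positive pools, and 1 higher and 2 lower in GFP negative pools, which with so few genes does not stand apart from all genes.

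In single cells the collagens of the E10.5 neural tube were common at E10.5 and rarer later. Presence in a cell means an RPKM of 10 or more, and intervals are exact 95% Clopper-Pearson intervals that cover counting error only. Col2a1 was present in 96 cells or 70.1% at E10.5 (61.7 to 77.6), in 22 or 24.4% at E11.5 (16 to 34.6), in 35 or 19.7% at E12.5 (14.1 to 26.3), and in 28 or 19.3% at E13.5 (13.2 to 26.7). Col18a1 was present in 69.3%, 16.7%, 6.74% and 6.21% of cells at the 4 stages. Col4a2 was present in 51.8%, 5.56%, 1.12% and 5.52%, Col4a1 in 41.6%, 5.56%, 1.12% and 6.21%, and Col5a2 in 35.04%, 7.78%, 8.43% and 8.28%. The intervals of all 5 genes at E10.5 lie above those of each later stage. The shares depend on the level asked for. With an RPKM of 50 or more, Col4a1 was present in 17.5%, 3.33%, 1.12% and 0.690% of cells, Col5a2 in 16.8%, 2.22%, 3.93% and 5.52%, and Col18a1 in 40.9%, 11.1%, 2.81% and 2.07%. At an RPKM of at least 1 the E10.5 shares of Col4a1 and Col5a2 were 50.4% and 42.3%, and E10.5 had the highest share of the 4 stages for all 5 genes at each level.

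Each stage is 1 sample, since no animal is named, so these shares have no test between stages. The median estimated depth was 1.29 M reads at E10.5, 0.746 M at E11.5, 1.40 M at E12.5 and 1.76 M at E13.5, and the median number of genes at an RPKM of at least 1 was 5747, 3567, 4266 and 4287. By this estimate depth was lowest at E11.5 and highest at E13.5. The estimate is weak, since a median of 16.6% to 17.9% of low values lay near whole reads per stage, where chance gives 10%. The cells sampled also differed, since the reporter reached an RPKM of 10 in 75.2% of cells at E10.5. At the later stages it did so in 30%, 28.1% and 26.9% of cells. The part of genes detected and of the cells sampled in the fall after E10.5 was not tested. The E12.5 cells have titles with 2 leading letters, and Col2a1 was present in 25.4% of the 63 cells of the one and 16.5% of those of the other, with overlapping intervals (15.3 to 37.9 and 10.3 to 24.6).

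Collagen IX chains ran the other way. Col9a3 was present in 0.730%, 5.56%, 7.30% and 7.59% of cells from E10.5 to E13.5, and Col9a2 in 0.730%, 0%, 10.1% and 6.90%. Of 29 cells with Col9a2 and 30 with Col9a3, 2 had both, which is 6.90% of the cells with Col9a2, where 5.455% of all 550 cells had Col9a3. Of the chains of collagen IV, 45 of the 57 E10.5 cells with Col4a1 also had Col4a2 (78.9%, where 51.8% of all E10.5 cells had Col4a2), and 71 of 96 with Col2a1 had Col18a1 (73.96%, where 69.3% of all had it). Cells with Col4a1 thus held Col4a2 more often than all cells did, while the other 2 pairs, as given here, lay near the shares of all cells. Chains of different collagens also shared cells, with Col18a1 in 60 of the 71 E10.5 cells with Col4a2 (84.5%, beside the same 69.3%). Over all stages together, 51.4% of cells with Col2a1 had Col18a1, where 23.8% of all 550 cells had it.

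**Figure D4:**
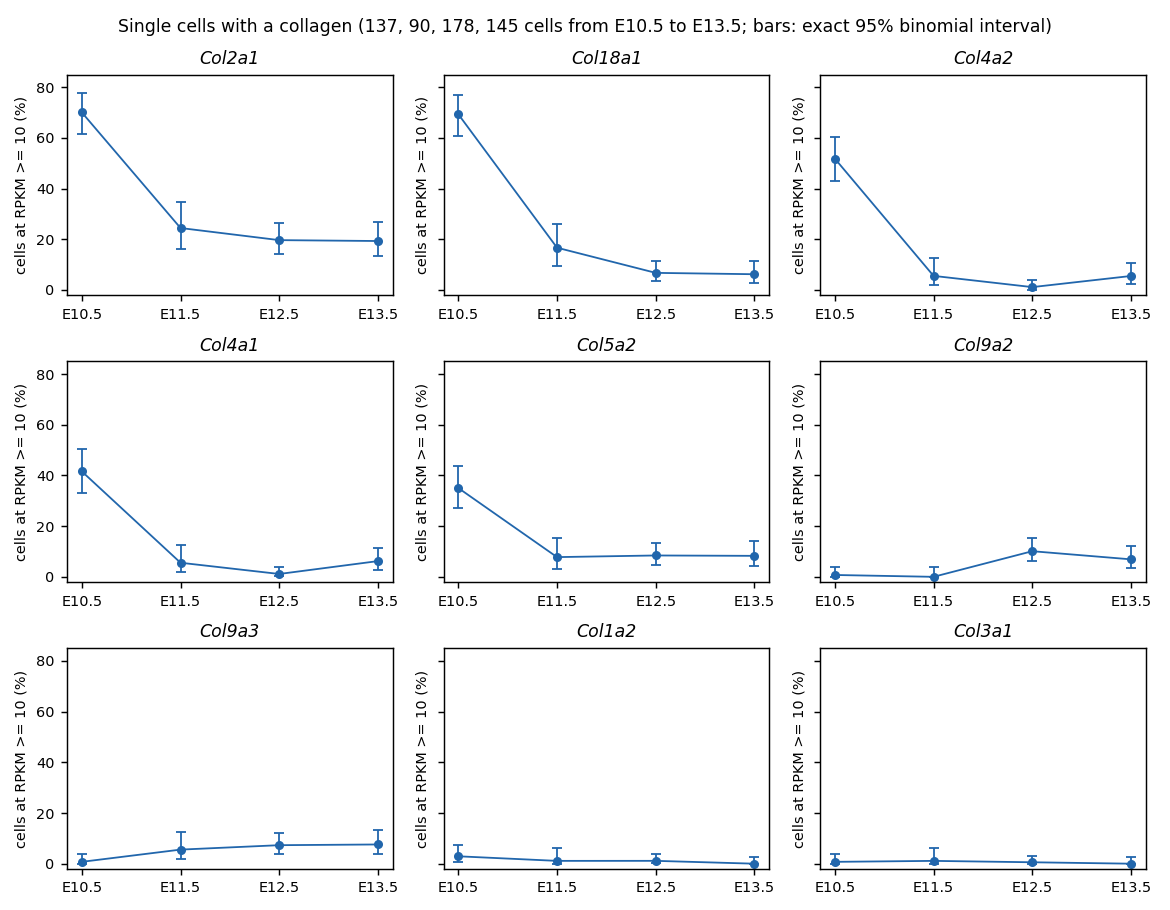
Percent of single cells with an RPKM of at least 10 for 9 collagens at the 4 stages from E10.5 to E13.5, with exact 95% binomial intervals. Col2a1 goes through 70.1%, 24.4%, 19.7% and 19.3%, Col9a2 and Col9a3 stand at 0.730% at E10.5 and at 6.90% and 7.59% at E13.5, and Col1a2 and Col3a1 stay under 3% at each stage.

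Collagens I and III were nearly missing from the single cells. Col1a1 was present in 0 of 550 cells, which allows a share of up to 0.545% by a limit of 3 counts (not an exact interval), and its highest value was 1.72 RPKM. Col3a1 was present in 3 cells, 1 each at E10.5, E11.5 and E12.5, at 66.9, 36.1 and 64.7 RPKM, and Col1a2 in 7 cells at 25.9 to 53.5 RPKM. None of these 10 cells held a second of the 3 genes. A mesenchyme gate of at least 3 of the markers at an RPKM of at least 10 took in 8 cells, none of which was among the 10. The gate does not set mesenchymal cells apart, since all 8 held Fbln1 and 7 of them at least 6 of 10 neural progenitor markers, and its size was 44 cells with 2 markers asked for, 1 with 4 and 15 at an RPKM of at least 1. Foxc1 and Foxc2 were present in 0 cells. Fbln1 was present in 140 cells. Among the 34 E10.5 cells with the reporter under an RPKM of 10, Col3a1 was present in 1 (2.94%, 0.0744 to 15.3), beside a mean of 72.9 RPKM in the E10.5 GFP negative pools.

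Cells with neural progenitor markers held more of the collagens than cells with neuron markers. The progenitor gate took at least 5 of 10 progenitor markers and the neuron gate at least 5 of 10 neuron markers, each with no gate of another cell type, and cells in both gates were left out. Col2a1 was present in 67.7% of progenitor gate cells, which were 29.3% of the 550, (59.9 to 74.9) and 6.73% of 297 neuron gate cells (4.16 to 10.2). Col18a1 was present in 52.8% of the progenitor gate and 1.01% of the neuron gate, Col4a2 in 36.02% and 2.69%, Col4a1 in 35.4% and 0.673%, and Col5a2 in 31.7% and 1.68%. Median estimated depths were 1.26 M reads in the progenitor and 1.51 M in the neuron gate, and median numbers of genes 5097 and 4212.

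Most progenitor gate cells were from E10.5 and most neuron gate cells from later stages, so the gates were also compared within E13.5, with 21 cells in the progenitor gate and 81.4% of the stage's cells in the neuron gate. There Col2a1 was present in 66.7% of progenitor gate cells (43.03 to 85.4) and 10.2% of neuron gate cells (5.37 to 17.1), Col18a1 in 38.1% (18.1 to 61.6) and 0% (0 to 3.08), and Col5a2 in 42.9% (21.8 to 65.98) and 1.69% (0.206 to 5.99). Col4a1 was present in 33.3% (14.6 to 56.97) and 0.847% (0.0214 to 4.63). Col4a2 was present in 1 of the 21 progenitor gate cells and 7 of the neuron gate cells, with overlapping intervals (0.121 to 23.8 and 2.42 to 11.8). The share with Col2a1 in the progenitor gate at E10.5 was 74.1% of 85 cells (63.5 to 83.01), which overlaps that at E13.5. In the same cells Col5a2 stood at 34.1% (24.2 to 45.2), Col18a1 at 70.6% (59.7 to 79.98) and Col4a1 at 52.9% (41.8 to 63.9). These intervals also overlap those at E13.5, whereas Col4a2 stood at 61.2% (49.99 to 71.6) at E10.5.

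Col9a3 was present in 0.621% of progenitor gate cells (0.0157 to 3.41) and 8.42% of neuron gate cells (5.52 to 12.2), and Col9a2 in 3.73% and 6.397%, with overlapping intervals for the second gene. Both gates are neural, and neither should hold collagen I or III, which were present in at most 1.68% of cells in either (Col1a2 in the neuron gate, all stages together). At E10.5 the neuron gate held 10 cells, of which 2 had Col1a2 (20%, 2.52 to 55.6) and 1 had Col3a1 (10%, 0.253 to 44.5). The median estimated depth of these 10 cells was 5.50 M reads, against 1.29 M in the progenitor gate at E10.5. Their median number of genes was 5178, against 5898.

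**Figure D5:**
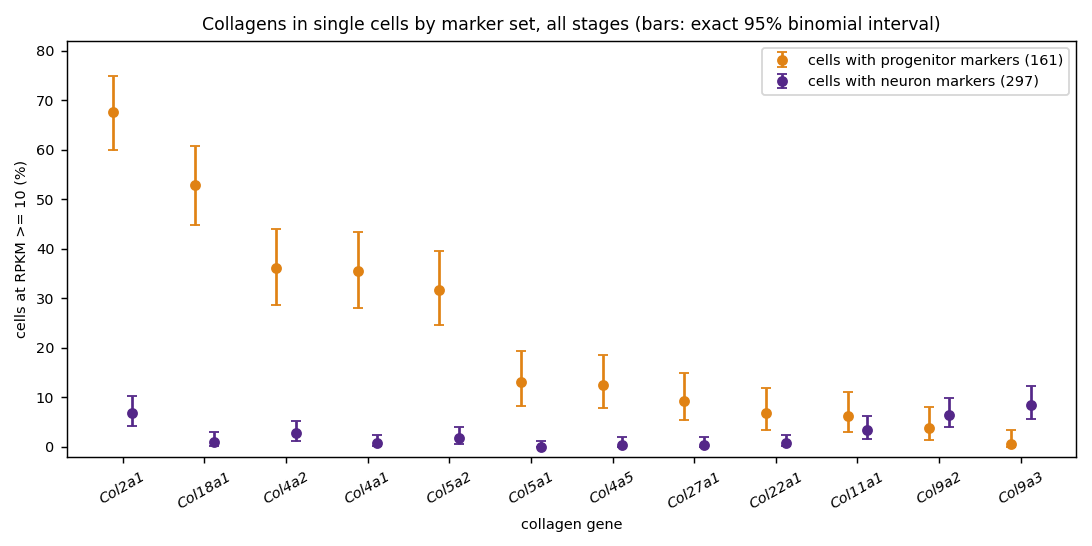
Percent of cells with an RPKM of at least 10 for 12 collagens in cells with progenitor markers and 297 cells with neuron markers, all stages together, with exact 95% binomial intervals. Col2a1 stands at 67.7% and 6.73%, and Col9a3 at 0.621% and 8.42%.

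The labels give single cells no GFP class, but the reporter can be read in them. At E13.5, Col2a1 was present in 43.6% of 39 cells with the reporter at an RPKM of at least 10 (27.8 to 60.4) and 10.4% of the cells under it (5.30 to 17.8). At E10.5 it was present in 79.6% of the cells with the reporter (70.5 to 86.9) and 41.2% of 34 cells under it (24.6 to 59.3). Col4a2 was present in 62.1% and 20.6% of these E10.5 cells (52.04 to 71.5 and 8.70 to 37.9), a difference that the pools, with 36.5 ± 8.33 RPKM in GFP positive and 27.1 ± 11.96 RPKM in GFP negative ones (SD, n = 6 each), did not call.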

How the data were processed

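The authors deposited RPKM values per gene for 24 pools and log2 values per gene for 550 single cells, which match log2(RPKM + 0.001) by their floor and were turned back into RPKM. Reads were mapped to mm10, and STAR 2.3.0 is named, per the submitters' processing notes. How reads were counted, and on which strand, is not given in the sources used here, and 2 columns that matched no sample were not used. Pools were tested with limma 3.58.1 in R 4.3.3 on log2(RPKM + 1), with 4 group means in 1 model, a variance trend, and genes with 1 RPKM or more in 6 or more pools. The fit recovered changes in simulated data. These were set only in genes averaging above about 10 RPKM at E10.5, so they do not cover collagens near 0. Pool columns carry no replicate number from the labels, so numbers are names only. The members and all lists were chosen with earlier results of these data known. Collagens with a mean of at least 10 RPKM in a pool group are described in full, together with every collagen called for GFP and those that complete a trimer or class, which were chosen after their values were seen. Cells were gated by markers without collagens. Promoter windows are RefSeq's for GRCm38.p6 (35 of 44 members matched). Depth is unknown beyond a rough estimate, and a gene listed at 0 may be undetected. Alternatives covered pseudocounts, filters, scaling, moderation and each pool left out.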

Additional observations from a re-analysis of the deposited data

Results flagged for a closer look

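In 8 of 36 groups of 6 pools examined, for the 9 collagens described in full, 1 pool stood apart from the others by its gap to the next pool. The rule used gives about 1 in 20 groups for normally spread values. That rate cannot be set against these RPKM values, since 1 pool above 5 pools at 0 is always flagged. Col1a1 had a highest pool of 0.0544 RPKM among GFP positive and 1.10 RPKM among GFP negative pools at E13.5, and of 3.41 RPKM among GFP positive pools at E10.5. Col1a2 had a highest pool of 0.202 RPKM among GFP positive pools at E13.5. Col18a1 had a highest pool of 1.43 RPKM among GFP negative pools at E13.5 and of 38.6 RPKM among GFP positive pools at E10.5. Col4a2 had a highest pool of 4.16 RPKM among GFP negative pools at E13.5, and Col4a1 one of 37.2 RPKM among GFP negative pools at E10.5. In the Col1a2 group and the E13.5 GFP positive Col1a1 group the other 5 pools were listed at 0.

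For 7 collagens the GFP difference itself differed between E13.5 and E10.5, by the test of that difference. The log2 values, E13.5 minus E10.5, were 5.47 for Col3a1, 3.72 for Col1a2, 2.89 for Col1a1, 2.78 for Col26a1, 1.52 for Col6a1, 1.52 for Col6a2 and 1.17 for Col13a1. Col13a1 passed the filter only through the E10.5 GFP negative pools, so its value is no independent result. Col3a1, Col1a2, Col1a1, Col6a1 and Col6a2 also needed those pools to pass. For each of the 7 collagens the GFP difference was negative at E10.5 and smaller at E13.5. The summed RPKM of collagens I and III reached at most 0.202 in GFP positive and at most 1.53 in GFP negative pools at E13.5.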

How the results depend on the processing

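No paired analysis was possible because the pool columns carry no replicate numbers from the labels. Over 1768 alternative values of single collagens in pools, 1668 kept direction and side of the threshold, 67 lost a call, 29 gained one and 4 changed sign. The sign changes were the uncalled Col5a2 GFP difference at E13.5, which ran from -0.10 to 0.15 when 1 pool was left out (-0.10, -0.01, -0.04 and -0.05 without GFP negative replicate 3 and GFP positive replicates 2, 4 and 6). The number of collagens higher with GFP at E10.5 was 1 with a pseudocount of 0.1, 6 with 10, 4 with quantile normalization, and 2 to 4 when 1 pool was left out (4 without E10.5 GFP negative replicate 6). The number higher at E13.5 was 1 with a pseudocount of 10, 1 when only the pools compared were fitted, and 1 to 2 when 1 pool was left out: it was 1 without GFP negative replicate 3, 5 or 6 or GFP positive replicate 2, 3, 4 or 6. The number lower there was 2 with a pseudocount of 10, 2 with no variance trend and 0 with the stricter filter of an RPKM of at least 5 in 6 pools. That filter tests fewer genes and left 3 lower with GFP at E10.5, 1 higher and 6 lower with stage in GFP positive pools, 1 higher and 9 lower in GFP negative pools, and 3 in the difference between stages. With no filter, stage called 4 higher in GFP positive and 5 higher in GFP negative pools. Leaving out 1 pool gave 7 to 8 lower with GFP at E10.5, 11 to 13 lower with stage in GFP positive and 16 to 19 in GFP negative pools, and 7 to 8 in the difference between stages. Except for the filter, the causes were not tested. Rescaling to an equal sum moved the median stage difference of all genes in GFP negative pools by 0.119, quantile normalization by 0.105, and median-ratio rescaling that in GFP positive pools by 0.108. Of the alternative shares of cells, all but 22 moved within counting error, and most of the 22 came from another RPKM counted as present. Low values and the unknown depth limit what 0 RPKM means, and the absence of named embryos limits what n = 6 measures.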

Other observations

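Among E10.5 cells, 95.6% held at least 1 collagen at an RPKM of at least 10, with a median of 3 and a highest number of 12 different collagens in a cell. At the later stages 47.8%, 48.9% and 49.7% of cells held one, and the median was 0. Col4a4, Col1a1, Col28a1 and Col6a5 were present in no cell at that level. Of the 10 cells with Col1a2 or Col3a1, 4 had the reporter at an RPKM of at least 10. At E10.5, 6 of the 20 cells with Col5a1 also had Col5a2 (30%), beside 35.04% of all E10.5 cells.

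In the 6 E10.5 GFP negative pools Col3a1 RNA stood at 4.67 times the Col1a1 RNA or more, with a median of 6.63. Itga11 and P4ha3 averaged 3.14 and 29.1 RPKM in GFP positive pools at E13.5, where collagen I and III RNA was listed at or near 0.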
